A study of Mus musculus with 16 samples.

Results

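Mitochondrial ribosomal protein genes are nuclear genes whose products make up the protein part of the ribosome inside mitochondria. They were taken as the genes whose platform symbol starts with Mrpl or Mrps followed by a number, from probe sets listed with exactly 1 gene symbol. The brightest probe set stood for each gene. This gave 77 genes from 85 probe sets, 48 named for the large subunit (Mrpl) and 29 for the small subunit (Mrps), among 19938 genes tested. Mrpl53 shares its probe set with Ccdc142 and was left out by this rule. All 77 were matched to RefSeq by gene ID, and chromosomes are given from that annotation (assembly GRCm38.p6). Of the 77 genes 8 have a second, dimmer probe set, and whether a probe set also matches a copy elsewhere in the genome was not tested.

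RNA of mouse embryonic fibroblasts, connective tissue cells grown from embryos, was measured on 16 whole-transcript arrays, 1 array per plate and 4 plates per group. The groups were cells stably expressing an shRNA against Atf5 with 1 µM MG132 for 8 h, the same knockdown cells with DMSO, wild-type cells with a scramble shRNA and 1 µM MG132 for 8 h, and those control cells with DMSO. DMSO is the vehicle, and the labels also call those plates untreated. MG132 is a proteasome inhibitor, and ATF5 is a bZIP transcription factor that in mammalian cells takes part in the response to misfolded proteins in mitochondria. The labels describe a single line of each kind, so the knockdown and any other difference between the lines cannot be told apart. They do not say that plates were separate cultures, so p-values measure the spread between these plates, which may be technical.

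The mitochondrial ribosome translates the few messages of the mitochondrial genome, which code for core subunits of the respiratory chain and the ATP synthase. Its RNAs are made inside the organelle, while all its proteins are made in the cytosol and imported. Many of the proteins have a counterpart in bacteria, and the rest are specific to mitochondria. Transcription factors known for promoters of such genes include NRF1, the ETS factor GABP and YY1.

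The arrays measured Atf5 at 8.45, 8.43, 8.45 and 8.49 log2 units in knockdown cells with MG132, against 8.75, 8.72, 8.68 and 8.91 in control cells with MG132. With vehicle it read 8.32, 8.39, 8.28 and 8.41 in knockdown cells, against 8.68, 8.51, 8.46 and 8.62 in control cells. The lines did not overlap under either condition. The knockdown-minus-control difference was -0.31 ± 0.054 (SE) with MG132 and -0.22 ± 0.054 with vehicle (limma, adjusted p = 0.000148 and 0.00321), and the exact two-sided permutation p was 0.0286 for each, the smallest that 4 against 4 arrays can give. Array medians lay between 7.71 and 7.82 log2 units. The 10 fibroblast markers averaged 10.74 to 10.81 in knockdown cells with MG132, 10.93 to 11.01 in knockdown cells with vehicle, 10.60 to 10.61 in control cells with MG132 and 10.85 to 10.87 in control cells with vehicle. No macrophage, endothelial, epithelial, skeletal muscle or adipocyte list averaged above 7.48 on any array. The neuron list read 7.61 to 7.88 in knockdown and 8.12 to 8.37 in control cells, and the smooth muscle list 8.70 to 8.86 and 8.99 to 9.23. These means did not stand for whole lists. With vehicle 3 of 6 neuron genes were lower and 1 higher in knockdown cells, at -3.06 for Stmn2 and 1.22 for Map2. Of 6 smooth muscle genes 2 were lower and 0 higher, at -2.06 for Tagln. Of 10 fibroblast genes 3 were lower and 4 higher. Of 8 macrophage genes 0 were lower and 2 higher, at 0.79 for Cd14. Of 6 adipocyte genes 1 was lower and 1 higher, at -1.51 for Pparg and 0.72 for Fabp4. The part of these shifts in the results was not tested. Cell numbers were not measured, so fewer cells and less RNA per cell cannot be told apart in any value below.

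With MG132 more of these genes fell than rose in both lines. In knockdown cells 41 of the 77 genes fell and 10 rose (limma over all genes, Benjamini-Hochberg adjusted p below 0.05), a share called of 66.2%. Over all genes tested 24.3% fell and 16.4% rose, 40.7% in all. The mitochondrial ribosomal protein genes are brighter than most genes, however. Among the 9397 genes at least as bright as the dimmest of them, Mrpl44 with a mean of 8.44 log2 units, 42.8% fell and 23.7% rose, 66.5% in all. The share of the 77 genes called was thus near that of equally bright genes, and the share that fell was 53.2%. With every array centred on its median, 29 fell and 13 rose. The shares of all genes and of the bright genes were not counted under that scaling. These centred counts therefore cannot be set against the shares above.

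Control cells gave a similar picture. Of the 77 genes, 35 fell and 13 rose with MG132, or 45.5% and 16.9%. Over all genes 19% fell and 16.8% rose (35.8% called), and over the bright genes 34.5% fell and 27.2% rose (61.7% called). The median change of the 77 genes was -0.13 log2 units in knockdown cells, a drop of 8.46%, and -0.10 in control cells, a drop of 6.37%. The median over the bright genes was -0.06 in knockdown and -0.02 in control cells. The medians of large and of small subunit names stayed below 0 in both lines under quantile normalization and median centring. Standard errors of a single gene ranged from 0.029 to 0.1.

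The direction was shared by the lines for every gene called in both. With MG132, 31 genes fell in both lines and 9 rose in both, and no gene rose in 1 line and fell in the other. The same counts were not taken over all genes or the bright genes, so they show no trait of the family. A further 10 genes fell in knockdown cells only by the threshold, and 4 in control cells only, while 1 and 4 rose in a single line. Across the 77 genes the responses of the lines, which share no arrays, had a Pearson correlation of 0.889 and a Spearman correlation of 0.842. That is a description across genes measured on the same arrays, not a test. The plot of the responses shows the genes along the diagonal, with a few away from it.

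**Figure D1:**
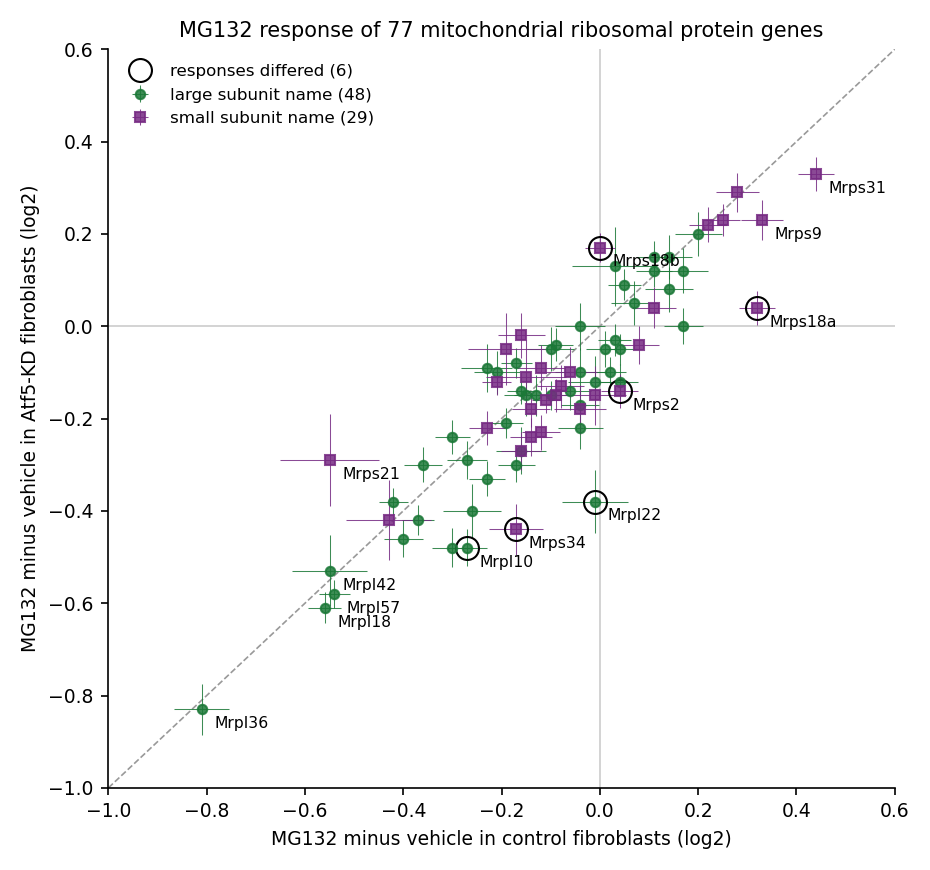
Each point is a mitochondrial ribosomal protein gene, with its MG132-minus-vehicle difference in Atf5-knockdown cells (vertical, log2) against that in control cells (horizontal, log2), and bars of 1 SE. Mrpl36 lies lowest at -0.83 and -0.81, and rings mark the 6 genes whose responses differed between the lines.

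Mrpl36 fell most. It encodes the counterpart of bacterial L36, among the smallest proteins of the large subunit. Its level was 9.01, 8.94, 9.12 and 8.97 log2 units in knockdown cells with MG132, against 9.86, 9.80, 9.84 and 9.84 in knockdown cells with vehicle. In control cells it was 10.07, 10.20, 10.13 and 10.06 with MG132, against 11.06, 10.98, 10.91 and 10.76 with vehicle. None of the 4 groups overlapped another, and the order was the same with each condition and in each line. It fell by 0.83 ± 0.056 in knockdown cells (adjusted p = 3.8e-09), a change of -43.6%, and by 0.81 ± 0.056 in control cells (adjusted p = 4.86e-09), a change of -43.1%. The difference between these responses was -0.01 (95% interval -0.18 to 0.16).

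The stretch upstream of Mrpl36 is printed because this gene moved most in each pairwise comparison. It is the 150 bases before the RefSeq start on chromosome 13, chr13:73330859-73331008, plus strand, build GRCm38.p6. Capitals mark a match to the YY1 motif AAGATGGCG, here on the reverse strand.
Mrpl36: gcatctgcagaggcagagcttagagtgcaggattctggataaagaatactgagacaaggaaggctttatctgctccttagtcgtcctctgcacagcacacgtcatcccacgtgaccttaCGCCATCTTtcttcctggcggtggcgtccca

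Mrpl18 encodes a protein of the central protuberance, the counterpart of the bacterial L18 that holds 5S ribosomal RNA. In mammalian cells it is also known for a cytosolic form made under heat shock. It read 10.59, 10.60, 10.61 and 10.58 in knockdown cells with MG132, against 11.21, 11.19, 11.14 and 11.29 with vehicle. Control cells read 10.75, 10.71, 10.67 and 10.72 with MG132, against 11.28, 11.32, 11.26 and 11.25 with vehicle. In both lines every MG132 plate lay below every vehicle plate, with falls of 0.61 ± 0.034 and 0.56 ± 0.034 (adjusted p = 4.42e-10 in knockdown and 1.05e-09 in control cells).

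Mrpl57, a large subunit protein specific to mitochondria, fell by nearly as much. Its levels were 9.96, 10.05, 10.04 and 10.00 in knockdown cells with MG132, against 10.55, 10.59, 10.63 and 10.61 with vehicle. They were 9.97, 9.96, 9.99 and 10.02 in control cells with MG132, against 10.52, 10.54, 10.51 and 10.54 with vehicle. The falls were 0.58 ± 0.031 and 0.54 ± 0.031 (adjusted p = 2.57e-10 and 5.14e-10). Here the lines lay close under each condition, unlike Mrpl36. With MG132 they overlapped, at a difference of 0.03 ± 0.031. With vehicle every knockdown plate lay above every control plate, by 0.07 ± 0.031 on average (adjusted p = 0.102).

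Other large subunit genes that fell in both lines were Mrpl42, Mrpl54, Mrpl34, Mrpl41 and Mrpl51. Mrpl42, mitochondrion-specific, read 9.45, 9.37, 9.57 and 9.34 in knockdown cells with MG132, against 9.80, 9.99, 10.09 and 9.95 with vehicle. Control cells read 9.66, 9.57, 9.62 and 9.40 with MG132, against 10.01, 10.20, 10.26 and 9.98 with vehicle. Its plates varied more than those of Mrpl57, with an SE of 0.077 on a change of -0.53 in knockdown and -0.55 in control cells, but MG132 and vehicle did not overlap in either line. Mrpl54, also mitochondrion-specific, fell by 0.46 ± 0.04 in knockdown and 0.40 ± 0.04 in control cells. Mrpl34, the counterpart of bacterial L34, fell by 0.42 ± 0.033 and 0.37 ± 0.033. Mrpl41 and Mrpl51 fell by 0.48 and 0.38 in knockdown cells and by 0.30 and 0.42 in control cells, and each has a second, dimmer probe set that fell in both lines too.

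The genes that rose were led by small subunit names. Mrps31, specific to mitochondria, read 10.59, 10.65, 10.66 and 10.57 in knockdown cells with MG132, against 10.30, 10.24, 10.30 and 10.31 with vehicle. In control cells it read 10.55, 10.59, 10.58 and 10.46 with MG132, against 10.10, 10.11, 10.07 and 10.13 with vehicle. Every MG132 plate lay above every vehicle plate of its line, by 0.33 ± 0.036 on average in knockdown and 0.44 ± 0.036 in control cells (adjusted p = 8.6e-07 and 3.03e-08). Mrps9, the counterpart of bacterial S9, which reaches toward the tRNA sites, rose by 0.23 ± 0.043 and 0.33 ± 0.043. Mrps22, known for human variants that cause mitochondrial disease, rose by 0.29 ± 0.043 and 0.28 ± 0.043, and Mrps6, the counterpart of bacterial S6, by 0.23 ± 0.035 and 0.25 ± 0.035. Mrps30, which carries a small subunit name but sits in the large subunit in structures of the mammalian particle, rose by 0.22 in each line. Among genes named for the large subunit, Mrpl1 rose by 0.20 ± 0.048 in each line. Mrpl13 rose by 0.15 and 0.11, Mrpl21 by 0.15 and 0.14 and Mrpl38 by 0.12 and 0.11, all past the threshold.

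**Figure D2:**
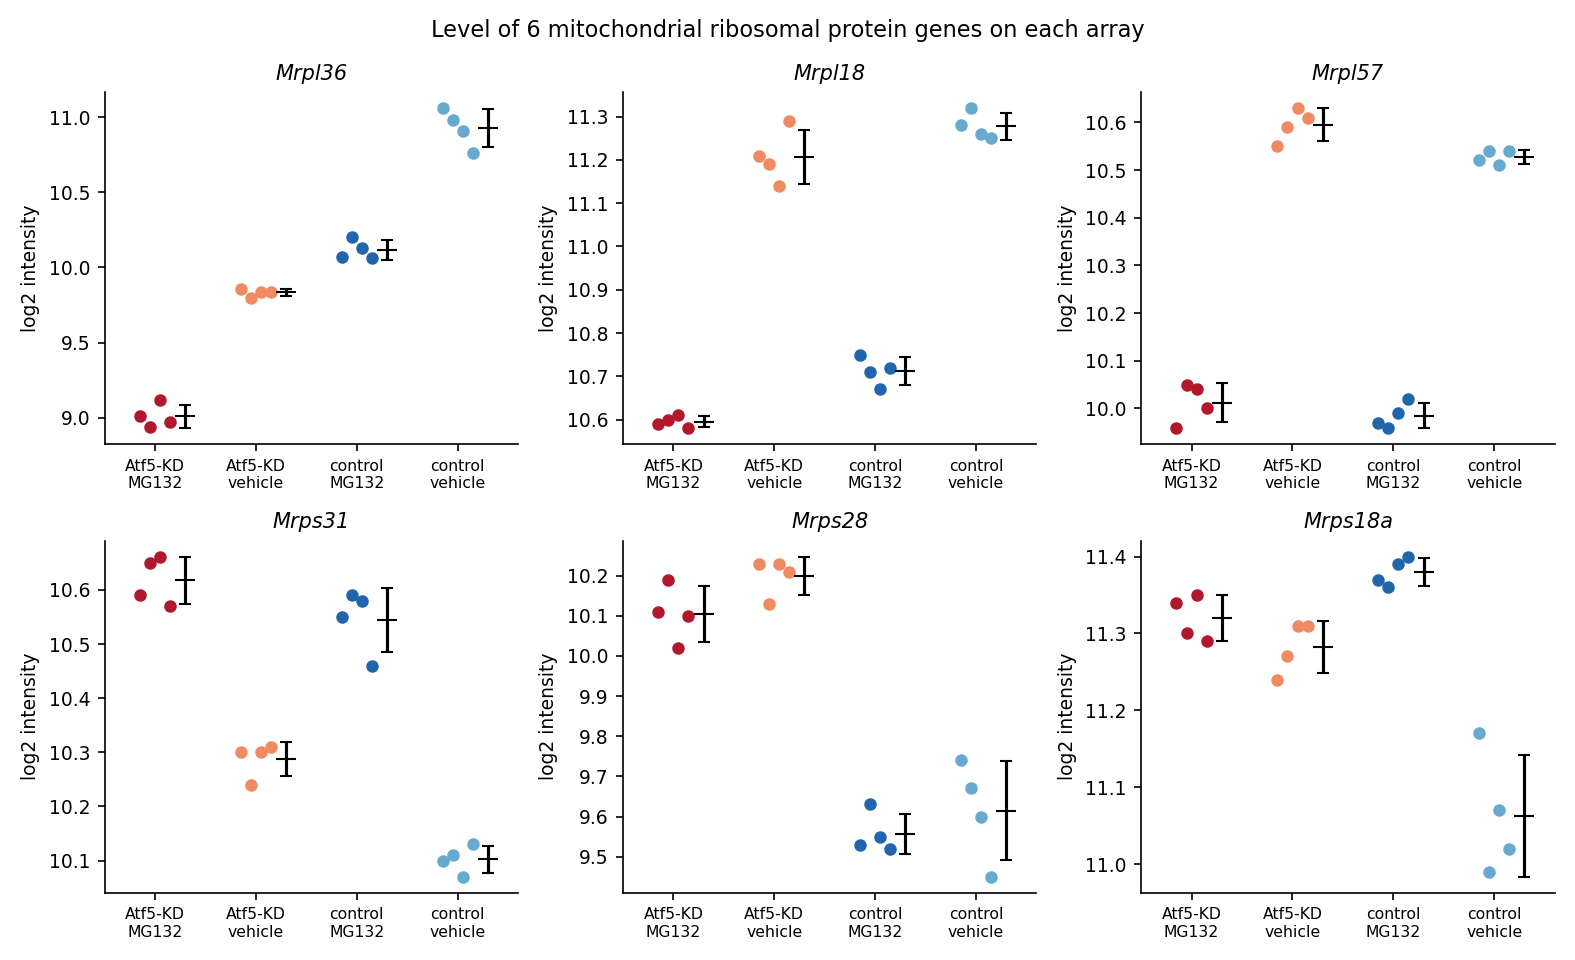
Log2 intensity of 6 genes on each array (points), by group, with the group mean (horizontal tick) and SD (bar) of 4 arrays beside it. Mrpl36, Mrpl18 and Mrpl57 sit lower and Mrps31 higher with MG132 in both lines, Mrps28 sits higher in knockdown cells, and Mrps18a is low in control cells with vehicle.

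By subunit, the medians of the names for the large and the small subunit lay close together. In knockdown cells 27 of 48 large subunit names fell and 4 rose (56.2% and 8.33%), against 14 and 6 of 29 small subunit names (48.3% and 20.7%). In control cells 24 large subunit names fell and 7 rose (50% and 14.6%), against 11 and 6 small subunit names (37.9% and 20.7%). Over the bright genes 42.8% fell and 23.7% rose in knockdown cells, and 34.5% and 27.2% in control cells. Median changes were -0.14 for large and -0.12 for small subunit names in knockdown cells, and -0.10 and -0.09 in control cells. With Mrps30 and Mrps18a counted in the large subunit, and Mrps36, now known as a part of the 2-oxoglutarate dehydrogenase complex, in neither, the order of the medians in knockdown cells turned, with a large-minus-small difference of 0.01 in place of -0.02. It turned in control cells too, to medians of -0.09 for the large and -0.10 for the small subunit. The gap between the medians was no larger than the shift that placing 3 genes differently made.

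The mean over genes on each array set MG132 apart from vehicle in both lines for the large subunit, and in knockdown cells for the small subunit. Large subunit names averaged 10.70 to 10.75 log2 units on the arrays of knockdown cells with MG132, against 10.89 to 10.92 with vehicle. The arrays of control cells gave 10.76 to 10.80 with MG132, against 10.90 to 10.94 with vehicle. Small subunit names averaged 10.49 to 10.52 in knockdown cells with MG132, against 10.55 to 10.60 with vehicle. In control cells the small subunit means of 10.48 to 10.54 with MG132 overlapped those of 10.51 to 10.57 with vehicle. The large-minus-small difference was 0.23 ± 0.022 in knockdown cells with MG132, 0.33 ± 0.016 in knockdown cells with vehicle, 0.27 ± 0.014 in control cells with MG132 and 0.37 ± 0.028 in control cells with vehicle (SD, n = 4 arrays each). This difference was lower with MG132 in both lines, with no overlap between arrays with MG132 and with vehicle. No test was made over the genes. The mean changes were -0.18 for large and -0.08 for small subunit names in knockdown cells, and -0.13 and -0.04 in control cells. These were farther apart than the medians above. With genes placed by structure the mean changes were -0.16 for large and -0.09 for small in knockdown cells. In control cells they were -0.12 and -0.06, so the means by structure lay closer together than those by name. The large-minus-small difference on each array was not taken by structure.

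**Figure D3:**
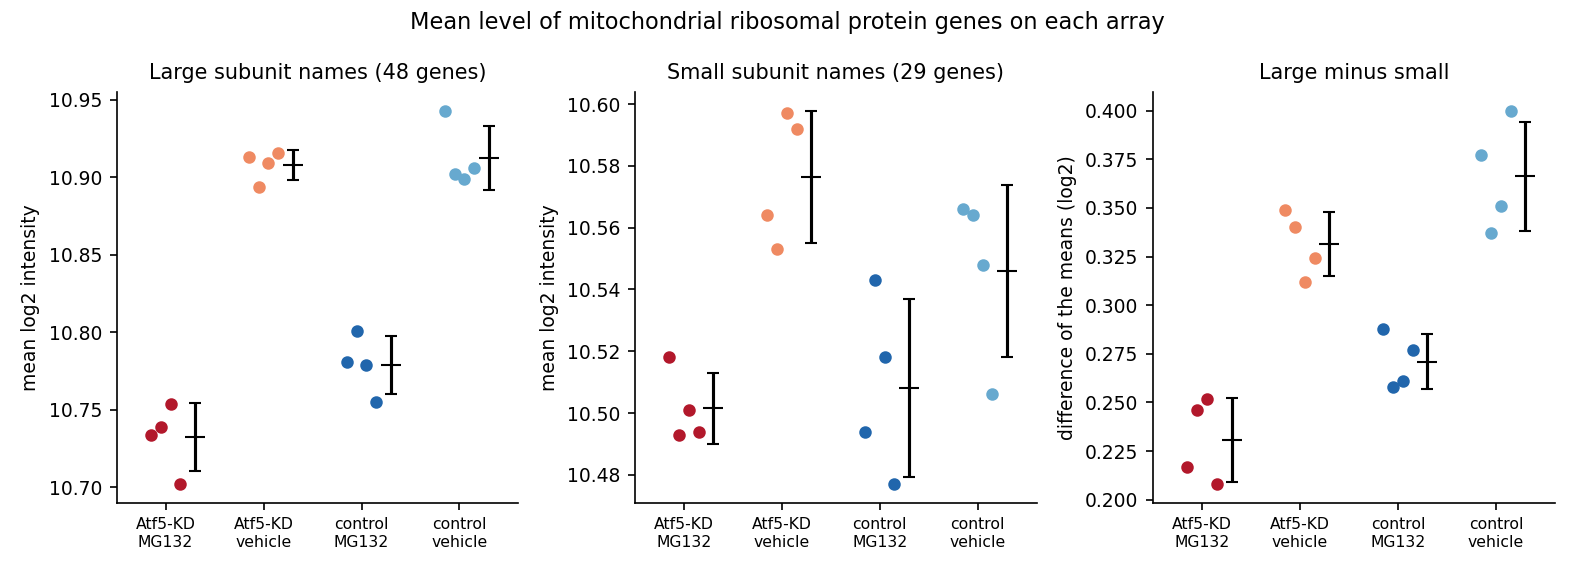
Mean log2 intensity over the 48 large subunit names (left) and the 29 small subunit names (middle), and their difference (right), on each array by group, with the group mean and SD of 4 arrays. Large subunit means with MG132 lie below those with vehicle in both lines, while small subunit means of control cells overlap.

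Cytosolic ribosomal protein genes were the nearest family to set beside these. Of 54 such genes 2 rose and 1 fell with MG132 in knockdown cells, and 7 rose and 0 fell in control cells, with medians of 0.01 and 0.02. Their array means were 12.75 to 12.78 log2 units in knockdown and 12.82 to 12.89 in control cells, so the lines did not overlap. With vehicle 17 of these genes were lower and 3 higher in knockdown cells (31.5% and 5.56%), against 28.9% and 34.6% of the bright genes. With MG132 23 were lower and 4 higher (42.6% and 7.41%), against 33.4% and 28.5%. Those probe sets are bright, and the range left above them was not measured. The difference between the families was not tested.

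By place in the large subunit, the stalk genes come first. Mrpl10, Mrpl11 and Mrpl12 encode the counterparts of the bacterial proteins that form the stalk, where translation factors dock. Mrpl10 fell by 0.48 ± 0.04 in knockdown and 0.27 ± 0.04 in control cells, and Mrpl11 by 0.33 ± 0.037 and 0.23 ± 0.037. Mrpl12, also known to bind the mitochondrial RNA polymerase, fell by 0.23 ± 0.052 in control cells, and its change in knockdown cells was -0.09 ± 0.052 (adjusted p = 0.173). Between the lines with vehicle Mrpl12 differed by -0.38 and Mrpl10 by 0.11, in opposite directions. Of 8 genes around the exit of the nascent chain, 4 fell and 0 rose in knockdown cells, and 2 fell and 1 rose in control cells. The gene that rose there was Mrpl45, whose product ties the ribosome to the inner membrane, at 0.17 ± 0.039 in control cells. Of 8 central protuberance genes, 5 fell and 2 rose in knockdown cells, against 3 and 3 in control cells. Over the bright genes 42.8% fell and 23.7% rose in knockdown cells, and 34.5% and 27.2% in control cells. These small classes were not tested against those shares.

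In the small subunit, 8 genes along the path of the message and at the decoding site gave 5 falls and 1 rise in knockdown cells, against 3 and 1 in control cells. Mrps21, the counterpart of bacterial S21, fell by 0.29 ± 0.1 in knockdown and 0.55 ± 0.1 in control cells, with the widest error of the 77 genes. Mrps17, the counterpart of bacterial S17, fell by 0.42 ± 0.087 and 0.43 ± 0.087. Mrps12, the counterpart of the S12 that monitors decoding in bacteria, fell by 0.13 ± 0.047 in knockdown cells (adjusted p = 0.0394), against -0.08 ± 0.047 in control cells. Its call was lost under both other scalings (0.213 and 0.178), a trended prior (0.0622), without the 4 arrays at one end of the main gradient (first principal component) within groups (0.0586) and without any 1 of 5 arrays, plates 1, 3 and 4 of knockdown with MG132 (0.0533, 0.0979 and 0.0865) and 1 and 3 of knockdown with vehicle (0.094 and 0.11). Genes with a bacterial counterpart gave 26 falls and 5 rises among 46 in knockdown cells (56.5% and 10.9%). Mitochondrion-specific genes gave 15 and 5 among 31 (48.4% and 16.1%), against 42.8% and 23.7% of the bright genes. The shares called, 67.4% and 64.5%, were near the 66.5% of the bright genes. In control cells the counts were 20 and 6 (43.5% and 13%), and 15 and 7 (48.4% and 22.6%). Of the bright genes 34.5% fell and 27.2% rose there. The medians were -0.14 and -0.10 in knockdown cells and -0.07 and -0.14 in control cells, so the order of these classes was not the same in the lines.

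Between the lines, the genes moved in both directions. With vehicle, 25 of the 77 genes were higher and 18 lower in knockdown than in control cells. Over all genes 21.5% were higher and 17.9% lower (39.4% called), and over the bright genes 34.6% and 28.9% (63.6% called). The shares of the 77 genes, 32.5% and 23.4%, were near those of the bright genes and are no result about the family. With every array centred on its median the split turned to 19 higher and 27 lower, and the bright genes were not counted under that scaling. The median of 0 changed its sign with the scaling, at -0.01 for large and -0.04 for small subunit names under quantile normalization.

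With MG132, 19 genes were higher and 31 lower in knockdown than in control cells. The shares were 24.7% and 40.3%, against 17.7% and 20.3% of all genes (38.1% called) and 28.5% and 33.4% of the bright genes (61.9% called). The plates of this comparison and of the one with vehicle are all different. Of the 77 genes 19 were higher in knockdown cells under both conditions and 16 were lower under both, and none was called in opposite directions. How many of all genes or of the bright genes did so was not counted. The line differences under the 2 conditions had a Pearson correlation of 0.922 and a Spearman correlation of 0.898 across the 77 genes, again a description across genes of the same arrays and the same lines.

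Mrpl36 stood farthest between the lines as well, at -1.09 ± 0.056 with vehicle and -1.11 ± 0.056 with MG132 (adjusted p = 4.98e-11 and 5.42e-11), or 2.13-fold and 2.15-fold lower in knockdown cells. Mrpl55, the mitochondrial counterpart of bacterial L31 at the central protuberance, read 9.48, 9.64, 9.63 and 9.56 in knockdown cells with MG132, against 10.17, 10.19, 10.16 and 10.18 in control cells with MG132. With vehicle it read 9.79, 9.61, 9.73 and 9.77 in knockdown cells, against 10.38, 10.24, 10.33 and 10.33 in control cells. The lines did not overlap, and the difference was -0.60 ± 0.045 under each condition (adjusted p = 1.01e-08 and 8.9e-09). Also lower in knockdown cells with vehicle were Mrps23 at -0.40, Mrpl12 at -0.38, Mrpl35 at -0.35, Mrps24 at -0.31 and Mrpl15, the counterpart of bacterial L15, at -0.29. With MG132 Mrpl15 was at -0.31 and Mrps35, a mitochondrion-specific protein of the small subunit, at -0.29.

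Mrps28, the counterpart of part of bacterial S1, had the largest positive difference between the lines with vehicle. It read 10.11, 10.19, 10.02 and 10.10 in knockdown cells with MG132, against 9.53, 9.63, 9.55 and 9.52 in control cells with MG132. With vehicle it read 10.23, 10.13, 10.23 and 10.21 in knockdown cells, against 9.74, 9.67, 9.60 and 9.45 in control cells. The lines did not overlap, with differences of 0.55 ± 0.054 and 0.59 ± 0.054 (adjusted p = 2.75e-07 and 1.03e-07). Mrpl33, Mrpl20 and Mrpl17, all with bacterial counterparts, were each 0.42 higher with vehicle and 0.47, 0.39 and 0.40 higher with MG132. Mrpl14, the counterpart of bacterial L14, was 0.38 ± 0.051 higher with vehicle and 0.27 ± 0.051 with MG132. With MG132 Mrpl33, Mrpl20, Mrpl17 and Mrpl14 fell in both lines. Mrpl33 changed by -0.30 and -0.36, Mrpl20 by -0.15 and -0.13 and Mrpl17 by -0.29 and -0.27 in knockdown and control cells. Mrpl14 changed by -0.27 and -0.16. Mrps28 was not called with MG132 in either line, at -0.10 ± 0.054 and -0.06 ± 0.054 (adjusted p = 0.177 and 0.462).

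On some chromosomes the line differences of these genes went the way of the bright genes there, and on others they did not. Of 5 genes on chromosome 3, 4 were higher in knockdown cells with vehicle and none lower, with a median of 0.33, where 65.2% of the bright genes on that chromosome were higher and their median was 0.18. Those 4 genes were Mrps28, Mrpl9, Mrpl24 and Mrps21. Of 6 genes on chromosome 7, 5 were higher and none lower, with a median of 0.22, against 0.06 over its 668 bright genes. Of those bright genes 40% were higher and 18.3% lower. Of 11 genes on chromosome 11, 2 were higher and 6 lower with vehicle, and 0 and 9 with MG132. Their medians were -0.17 and -0.29, against -0.07 and -0.11 over its 806 bright genes. Of those bright genes 41.7% were lower with vehicle and 50.1% with MG132. The single gene on chromosome 15, Mrpl13, was 0.35 ± 0.034 higher, where the median of the bright genes was 0.21. Mrpl36 stood apart from its chromosome, since the bright genes on chromosome 13 had a median of -0.03. On chromosome 8, 1 of 2 genes was higher and 0 lower, where 56.6% of the bright genes were higher. The medians there were 0.12 and 0.15. On chromosome 5, 2 of 4 were higher and 0 lower, where 42.2% of the bright genes were higher. The medians there were 0.21 and 0.07. Some other chromosomes gave no such likeness with vehicle. On chromosome 19, 1 of 5 was higher, where 51.2% of the bright genes were. On chromosome 14, 0 of 3 were lower, where 47.6% of the bright genes were. On chromosome 6 the median of the genes was -0.07, against 0.07 over its bright genes. The part of the chromosomes in these differences was not tested. For the MG132 response in knockdown cells, the medians of the bright genes lay between -0.09 and -0.04 on all 17 chromosomes that carry any of the 77 genes.

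**Figure D4:**
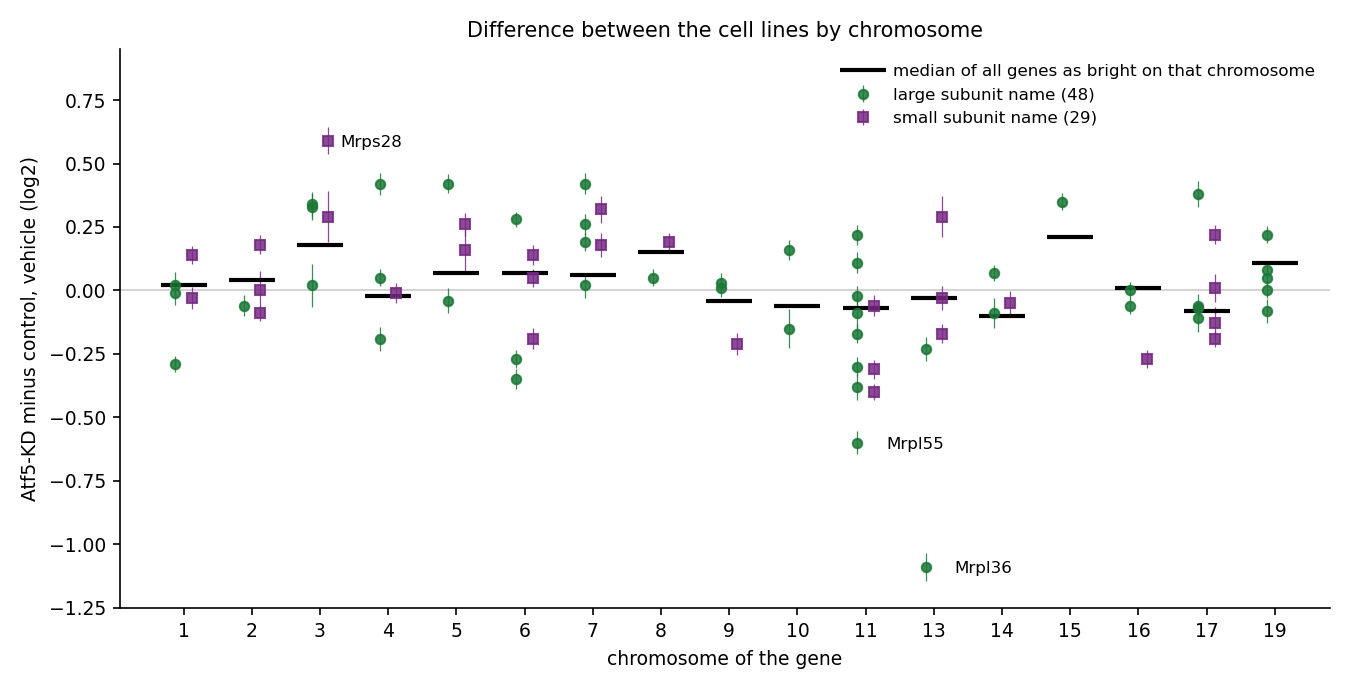
Knockdown-minus-control difference with vehicle (log2, bars of 1 SE) of each mitochondrial ribosomal protein gene by chromosome, with a black line at the median of all bright genes on that chromosome. The genes on chromosomes 3, 7 and 15 lie at or above 0 and most of those on chromosome 11 below, while Mrpl36 at -1.09 lies far from the median of chromosome 13.

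The difference of the MG132 responses asks whether the lines responded unequally. It passed the threshold for 6 of the 77 genes, 1 higher and 5 lower in knockdown cells, or 7.79%. Over all genes 14.6% were called (4.45% higher, 10.1% lower), and over the bright genes 24.3% (7.41% higher, 16.9% lower). These shares were not tested against each other. With every array centred on its median, 1 was higher and 2 lower, and the shares of all and of bright genes were not counted so. The medians of -0.04 for large and small subunit names alike became 0.01 and 0 under that scaling.

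Mrps18a gave the clearest difference, -0.28 ± 0.053 (adjusted p = 0.00184). It is a relative of bacterial S18 that sits in the large subunit in structures of the mammalian ribosome. It read 11.34, 11.30, 11.35 and 11.29 in knockdown cells with MG132, against 11.24, 11.27, 11.31 and 11.31 with vehicle, and these overlapped. Control cells read 11.37, 11.36, 11.39 and 11.40 with MG132, against 11.17, 10.99, 11.07 and 11.02 with vehicle, with no overlap and a rise of 0.32 ± 0.037. Its paralogue Mrps18b, a small subunit protein, differed the other way, by 0.18 ± 0.043 (adjusted p = 0.0115). Mrps18b read 11.92, 11.83, 11.92 and 11.91 in knockdown cells with MG132, against 11.75, 11.72, 11.73 and 11.69 with vehicle, while control cells read 11.87 to 11.94 with MG132 and 11.90 to 11.92 with vehicle. Mrps18c, the other paralogue of Mrps18a, differed by -0.06 ± 0.063 (adjusted p = 0.607).

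Mrpl22 lines the exit tunnel of the large subunit. It read 8.86, 8.96, 9.09 and 8.81 in knockdown cells with MG132, against 9.21, 9.32, 9.25 and 9.45 with vehicle. In control cells it read 9.34, 9.50, 9.31 and 9.41 with MG132, against 9.32, 9.52, 9.43 and 9.31 with vehicle. It fell by 0.38 ± 0.068 in knockdown cells and did not separate the conditions in control cells (-0.01 ± 0.068), a difference of -0.37 ± 0.096 (adjusted p = 0.0151). Mrps18a, Mrps18b and Mrpl22 kept their calls whichever of the 16 arrays was left out.

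The other calls were less firm. Mrps34, needed in human cells for a stable small subunit, fell by 0.44 ± 0.055 in knockdown and 0.17 ± 0.055 in control cells, a difference of -0.27 ± 0.078 (adjusted p = 0.0293). Its control response lost the call without plate 1 of the vehicle group, where it read 9.41 against 9.14 to 9.17 on the others, or without plate 4 of the MG132 group (adjusted p = 0.0623 and 0.0668). The control response was -0.11 and -0.14 in those fits, and -0.08 without the 4 arrays at one end of the gradient (0.158). It was also lost when only the control groups were fitted (0.062). Its difference lost the call without any 1 of 9 arrays, which were plates 1 and 4 of knockdown with MG132, 3 and 4 of knockdown with vehicle, 1 and 2 of control with MG132 and 2, 3 and 4 of control with vehicle (adjusted p up to 0.0666). Mrpl10 differed by -0.20 ± 0.056 (adjusted p = 0.0218) and lost the call without plate 1 of control with MG132 (0.0515). Mrps2 differed by -0.18 ± 0.052 (adjusted p = 0.0302) and lost it without any 1 of 7 arrays, which were plates 1 and 4 of knockdown with MG132, 3 and 4 of knockdown with vehicle, 1 of control with MG132 and 2 and 3 of control with vehicle (up to 0.0648). Among 9 other ways of processing, these genes also lost the call under array median centring, at adjusted p = 0.087 for Mrpl10, 0.0967 for Mrps34 and 0.116 for Mrps2. Under quantile normalization Mrps34 (0.11) and Mrps2 (0.0709) lost it. Without the 4 arrays at one end of the gradient Mrpl10 (0.0841) and Mrps2 (0.0786) lost it, and Mrps2 also with the replicate number as a block (0.0567). The second probe sets of Mrpl27, Mrpl41 and Mrpl47 passed this test at -0.30, -0.18 and -0.23, where the brighter ones used here gave -0.13, -0.18 and 0.10 and did not.

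In all, 22 of the 77 genes passed the threshold in each of the 4 pairwise comparisons, and 8 passed in none of the 5, which were Mrpl3, Mrpl30, Mrpl37, Mrpl43, Mrpl44, Mrpl47, Mrps16 and Mrps26. These counts were not taken over all genes or the bright genes and are no result about the family. Mrpl30, for instance, read 11.35 to 11.49 in knockdown cells with MG132 and 11.49 to 11.61 with vehicle. Control cells gave 11.42 to 11.48 and 11.41 to 11.67. The second, dimmer probe set of Mrpl47 did pass with MG132 in control cells, at 0.19 (adjusted p = 0.00402). It also passed between the lines with MG132, at -0.13, and for the difference, at -0.23 (adjusted p = 0.0359 and 0.0243).

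Other genes of mitochondrial translation moved in both directions. Of 5 ribosome-associated genes without an Mrp name, Chchd1, a small subunit protein, fell by 0.30 ± 0.057 in knockdown and 0.29 ± 0.057 in control cells. Oxa1l, the insertase at the ribosome exit, fell by 0.12 ± 0.031 and 0.09 ± 0.031, and Dap3, a small subunit GTP-binding protein, did not pass (0.05 ± 0.033 and 0.07 ± 0.033). Ptcd3, a pentatricopeptide repeat protein of the small subunit, rose by 0.19 ± 0.054 in knockdown cells (adjusted p = 0.00912), against -0.03 ± 0.054 in control cells. Gadd45gip1, a large subunit protein, fell by 0.16 ± 0.032 in knockdown cells, and its change in control cells was -0.07 ± 0.032 (adjusted p = 0.108). Of 28 assembly factors 13 fell and 5 rose with MG132 in knockdown cells, or 46.4% and 17.9%, near the 42.8% and 23.7% of the bright genes. In control cells 8 fell and 7 rose, or 28.6% and 25%, against 34.5% and 27.2% of the bright genes, with a median of 0. Tfb1m, which methylates the small ribosomal RNA, fell by 1.04 ± 0.073 and 0.78 ± 0.073, Noa1, a GTPase for small subunit assembly, by 0.43 and 0.62, and Mrm3, a methyltransferase of the large ribosomal RNA, by 0.42 and 0.35. Of 12 translation factors 7 fell and 1 rose in knockdown cells (58.3% and 8.33%), while in control cells 4 fell and 2 rose (33.3% and 16.7%). Mtfmt, which formylates the initiator methionyl-tRNA, fell by 0.62 ± 0.041 and 0.45 ± 0.041, while Tufm, the elongation factor that delivers tRNAs, rose by 0.15 in each line.

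Among 18 genes for mitochondrial transcription and RNA, 5 fell and 6 rose with MG132 in knockdown cells (27.8% and 33.3%). In control cells 4 fell and 4 rose (22.2% each). The bright genes gave 42.8% and 23.7% in knockdown cells, and 34.5% and 27.2% in control cells. Tefm, the transcription elongation factor, fell by 0.69 ± 0.056 and 0.44 ± 0.056, and Lrpprc, which stabilises mitochondrial messages, rose by 0.24 and 0.23. Between the lines with vehicle, 28.9% of the bright genes were lower in knockdown cells and 34.6% higher, and 17.9% and 21.5% of all genes. Of the 18 genes above 13 were lower and 1 higher (72.2% and 5.56%). Of 12 translation factors 7 were lower and 2 higher (58.3% and 16.7%), and of 28 assembly factors 12 were lower and 5 higher (42.9% and 17.9%). Gtpbp10, a GTPase for large subunit assembly, differed by -2.08 ± 0.069 between the lines, and Mtrf1, a release factor, by -1.07 ± 0.08. Of 9 nuclear regulators 3 were higher and 3 lower. Ppargc1a, the coactivator PGC-1alpha, was 1.87 ± 0.09 higher in knockdown cells with vehicle and Nrf1 0.29 ± 0.036 lower. Myc rose by 0.37 ± 0.043 with MG132 in knockdown cells, against -0.03 ± 0.043 in control cells, a difference of 0.40 ± 0.061 (adjusted p = 0.000383).

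Several of these genes start head to head with another gene, so that 1 short stretch of DNA lies between the starts of both. Among the RefSeq starts at hand, 25 of the 77 genes formed 24 such pairs with starts at most 1000 bases apart, and Mrpl46 and Mrps11 form a pair with each other. In knockdown cells with MG132, both genes of a pair were called in 9 of the 24 pairs. Both fell in 4 pairs, both rose in 1, and they moved in opposite directions in 4. Only the mitochondrial ribosomal protein gene was called in 4 pairs, only its neighbour in 6 and neither in 5. Of the bright genes 66.5% were called in this comparison, and 40.7% of all genes. In control cells both were called in 7 pairs, of which 3 fell together, 1 rose together and 3 were opposite. There 61.7% of the bright genes and 35.8% of all genes were called. Pairs of other genes were not counted, so these counts are no result about head-to-head pairs.

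The stretches between the starts are printed for 3 pairs, since they show the contrast in the genes above. Each is written on the strand of the mitochondrial ribosomal protein gene, 5′ to 3′, and ends just before its start (RefSeq, GRCm38.p6). Capitals mark NRF1 matches, GCATGCGC on either strand, and only these exact letters were searched. The promoter windows of Mrpl18 and Mrpl57, described below, hold the ETS letters CCGGAAG on either strand, outside the printed stretches. The first stretch lies at chr13:14613038-14613241 (minus strand), the second at chr17:12916092-12916328 (minus strand) and the third at chr14:57826164-57826238 (plus strand).
Mrpl32 with Psma2: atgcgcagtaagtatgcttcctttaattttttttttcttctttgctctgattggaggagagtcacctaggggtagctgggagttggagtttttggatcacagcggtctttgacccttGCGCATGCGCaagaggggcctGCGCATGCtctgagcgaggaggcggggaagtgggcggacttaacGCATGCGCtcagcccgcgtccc
Mrpl18 with Tcp1: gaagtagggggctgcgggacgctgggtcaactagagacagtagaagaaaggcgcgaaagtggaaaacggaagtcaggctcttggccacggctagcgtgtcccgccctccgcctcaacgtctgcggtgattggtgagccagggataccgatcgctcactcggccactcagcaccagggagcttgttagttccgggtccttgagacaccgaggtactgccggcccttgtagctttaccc
Mrpl57 with Ska3: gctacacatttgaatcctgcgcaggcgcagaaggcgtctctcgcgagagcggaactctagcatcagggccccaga

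Across the 75 bases between Mrpl57 and Ska3, the genes moved apart. Ska3, of the spindle and kinetochore complex, read 11.13, 11.05, 11.06 and 11.09 in knockdown cells with MG132, against 10.83, 10.92, 10.89 and 10.96 with vehicle. Ska3 in control cells read 11.49, 11.54, 11.53 and 11.50 with MG132, against 11.22, 11.31, 11.39 and 11.34 with vehicle. It rose by 0.18 ± 0.039 in knockdown and 0.20 ± 0.039 in control cells (adjusted p = 0.00105 and 0.000535), where Mrpl57 fell by 0.58 and 0.54.

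Between the starts of Mrpl18 and Tcp1, a subunit of the cytosolic chaperonin, lie 237 bases. Tcp1 read 12.98, 13.03, 13.05 and 13.02 in knockdown cells with MG132, against 12.96, 12.99, 13.04 and 13.03 with vehicle, and the groups overlapped. In control cells it read 13.06, 13.13, 13.14 and 12.99 with MG132, against 13.10, 13.17, 13.14 and 13.12 with vehicle. Its changes were 0.02 ± 0.037 and -0.05 ± 0.037 (adjusted p = 0.768 and 0.309), beside falls of 0.61 and 0.56 for Mrpl18. It is a bright probe set, and no upper end of its range was measured.

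The stretch of 204 bases between Mrpl32 and Psma2, which codes for a proteasome subunit, holds 3 separate NRF1 matches, 1 of them read on both strands. Mrpl32 read 10.13 to 10.22 in knockdown cells with MG132, against 10.12 to 10.19 with vehicle, a change of 0.05 ± 0.048 (adjusted p = 0.45). Psma2 read 12.08, 12.12, 12.18 and 12.10 in knockdown cells with MG132, against 11.94, 11.88, 11.91 and 11.93 with vehicle, a rise of 0.20 ± 0.035 (adjusted p = 0.000133). In control cells Psma2 changed by 0.04 ± 0.035 (adjusted p = 0.461) and Mrpl32 by 0.07 ± 0.048 (adjusted p = 0.279).

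**Figure D5:**
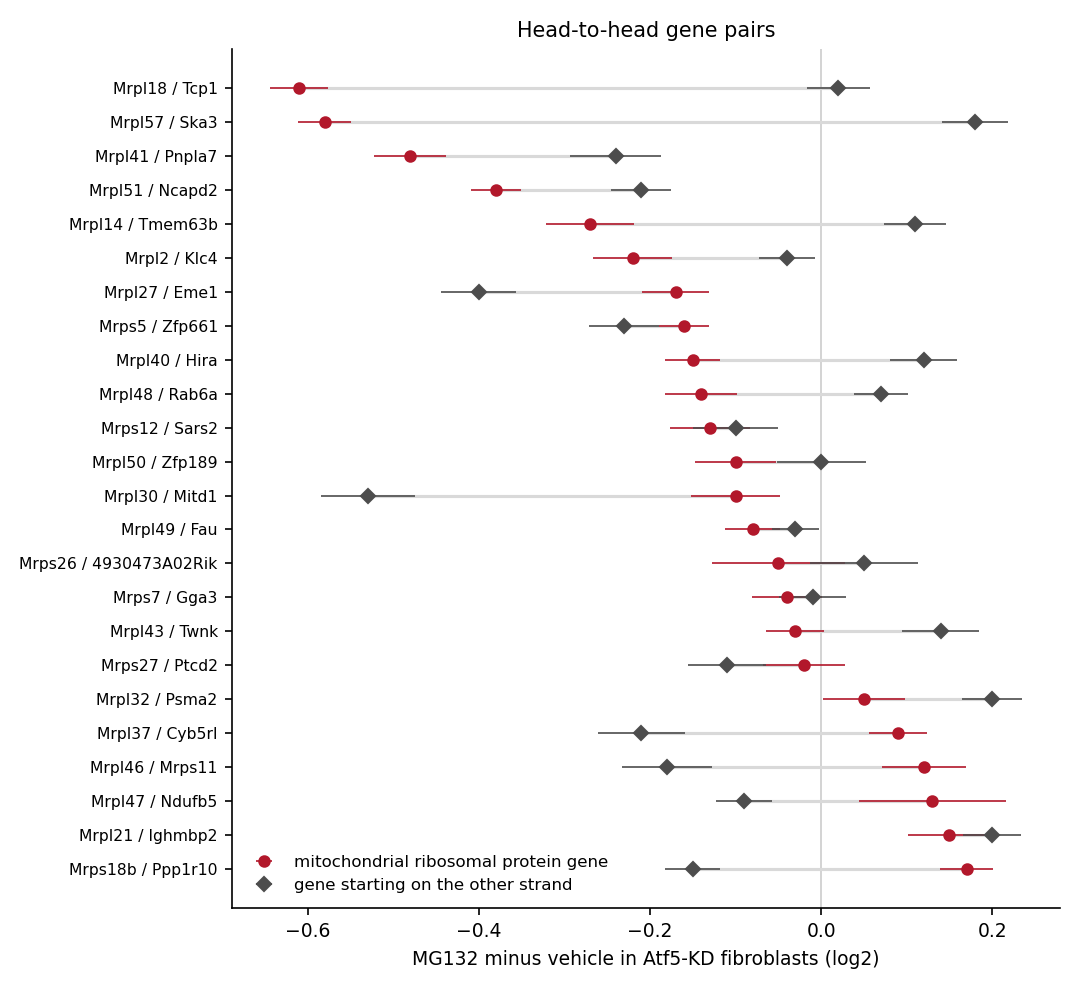
MG132-minus-vehicle difference in knockdown cells (log2, bars of 1 SE) of each mitochondrial ribosomal protein gene (circles) and of the gene that starts head to head with it (diamonds), ordered by the mitochondrial ribosomal protein gene. Mrpl18 and Mrpl57 lie at -0.61 and -0.58 while their neighbours lie at 0.02 and 0.18.

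Promoter windows, from 250 bases before to 50 bases after the RefSeq start, were at hand for 68 of the 77 genes and for 15614 genes tested. Motifs were searched on both strands. The letters CCGGAAG, the core bound by ETS factors such as GABP, were in windows of 25 genes (36.8%), against 13.6% of all genes. The YY1 letters AAGATGGCG were in 8 (11.8% against 2.29%), and the NRF1 letters GCATGCGC in 8 (11.8% against 4.27%). In no window did an ETS match overlap a YY1 match, and 35 of the 68 genes held at least 1 of these 3 motifs. The cyclic AMP response element TGACGTCA was in 2 genes, Mrpl16 and Mrpl49 (2.94% against 2.72%). The composite letters TTGCATCA, bound by pairs of C/EBP and ATF factors, were in none, against 0.82% of all genes. These shares describe letters in windows and were not tested.

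Responses with and without each motif can be set side by side. Of the 25 genes with the ETS letters 15 fell with MG132 in knockdown cells, against 21 of the 43 without, with medians of -0.14 and -0.12. Of the 8 with the NRF1 letters 5 fell, with a median of -0.20, against 31 of 60 and -0.14 for those without. In control cells the order of those medians was the other way, at 0 with 3 of 8 falling, against -0.11 and 28 of 60. Of the 8 with the YY1 letters, which include Mrpl36 and Mrpl42, 4 fell in knockdown cells, with a median of -0.12, against 32 of 60 and -0.14. The control medians were -0.09 with them and -0.10 without, and for the ETS letters -0.16 with them (12 of 25 fell) and -0.09 without (19 of 43).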

How the data were processed

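The deposited values are log2 intensities per probe set, 35556 probe sets on 16 arrays. Per the submitters' processing notes the authors used RMA (background correction, quantile normalization and summary of probes) and Partek; no versions are stated there. RMA fits all arrays together, so a change shared by most genes is scaled away. Probe sets were named from the platform annotation: 21789 had exactly 1 symbol, 1621 several and 12146 were unnamed here. The brightest probe set per gene gave 19938 genes, all tested with limma 3.58.1 (R 4.3.3), a mean per group, 5 contrasts and Benjamini-Hochberg adjustment over all genes at 0.05. The fit was tested on simulated data. Array number limits precision. Sequences came from RefSeq tables (GRCm38.p6). Members and lists were chosen with earlier results of these data known. The naming rule took, per comparison, the 8 highest and 8 lowest called members, a fixed panel of 15, all members called for the difference of responses and up to 4 genes per list, of which the text gives examples; neighbours, chromosomes, motif examples and further members were chosen after their values were seen. Alternatives covered scaling, filter, probe sets, prior, array weights, replicate block and each array left out.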

Additional observations from a re-analysis of the deposited data

Results flagged for a closer look

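A value far from the other 3 arrays of its group, past Dixon's 95% limit, was found for 3 named genes and 1 mean, and chance alone marks about 1 group in 20. Mrps18b read 11.83 on 1 array of knockdown cells with MG132, against 11.91 to 11.92 on the others. Mrps31 read 10.24 on 1 array of knockdown cells with vehicle, against 10.30 to 10.31. Mrps34 read 9.41 on 1 array of control cells with vehicle, against 9.14 to 9.17. The mean of the large subunit names was 10.943 on that same array, against 10.899 to 10.906. The difference of the MG132 responses, knockdown minus control, passed its own test for 6 genes, at 0.18 for Mrps18b, -0.37 for Mrpl22, -0.28 for Mrps18a, -0.27 for Mrps34, -0.20 for Mrpl10 and -0.18 for Mrps2.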

How the results depend on the processing

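The counts of genes that fell or rose with MG132, or differed between the lines, kept within 1.5 times their value under every alternative, and no result changed direction past the threshold. Without any 1 array, 46 to 52 genes were called with MG132 in knockdown cells, 44 to 50 in control cells, 40 to 44 between the lines with vehicle and 48 to 50 with MG132. For the difference of the responses, 4 to 8 were called, 3 to 7 lower and 1 to 2 higher. Median centring gave 3 (2 lower), a filter at the 25th percentile 8 lower, and a trended, robust prior 10 (9 lower). Medians for large and small subunit names in knockdown cells with MG132 were -0.12 and -0.09 after quantile normalization and -0.08 and -0.06 after centring; between the lines with vehicle -0.01 and -0.04, and -0.06 and -0.07; for the difference of responses -0.01 and -0.01, and 0.01 and 0. Array weights, and leaving out the 4 arrays at one end of the main gradient within groups (chosen after seeing the data), each moved the small subunit median between the lines with vehicle to 0.03 and large minus small to -0.02. Without any 1 array that median was -0.01 to 0.05, and large minus small was -0.04 to 0 and -0.02 to 0.01 for MG132 in knockdown and control cells, -0.05 to 0.02 between the lines with vehicle and 0 to 0.02 for the difference. Placing genes by structure gave 0.01 in knockdown and 0.01 in control cells. The causes were not tested. Whether plate numbers pair the groups was not settled. Deviations of same-numbered plates correlated from -0.245 to 0.396, and differently numbered plates were not compared. Between MG132 and vehicle in control cells these correlations were 0.0315, 0.335, 0.276 and 0.329. With the replicate block 51, 48, 43, 50 and 5 genes were called in the 5 comparisons, Mrps2 losing its call (adjusted p = 0.0567). Over single genes, 6317 of the repeats kept the call, 159 lost it and 60 gained it. Dim probe sets limit small changes: the dimmest member averaged 8.44.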
